A study of Mus musculus with 6 samples.

Results

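The 9 genes of the mouse VEGF system described here are the ligands Vegfa, Vegfb, Vegfc and Pgf, the receptors Flt1, Kdr and Flt4, and the neuropilins Nrp1 and Nrp2. They are the rows of the count table whose symbol equals one of these names, 9 of 22183 genes in all, and each symbol was found in a single row. RNA was sequenced from peritoneal endothelial cells (ECs) of male wild-type C57BL/6J mice, 8 to 10 weeks old, that had received a daily intraperitoneal injection for 6 weeks. The injection was saline in 3 mice and a glucose-based peritoneal dialysis (PD) fluid, Dianeal, in the other 3, with a library for each mouse, so that the comparison asks how PD fluid altered the transcripts of peritoneal ECs. The mice of both groups were wild type, and the study's methods describe no kidney injury in them, which limits them as a model of dialysis.

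The vascular endothelial growth factors act on ECs through receptor tyrosine kinases. VEGF-A signals mainly through VEGFR2, the product of Kdr, which drives EC proliferation, migration and permeability. VEGFR1, the product of Flt1, binds VEGF-A tightly but has weak kinase activity, also exists in a soluble form, and is the receptor for VEGF-B and placental growth factor. VEGF-C and VEGFR3, the product of Flt4, are best known for lymphatic growth, and the neuropilins are co-receptors that VEGFs share with class 3 semaphorins. In PD, growth of the peritoneal microvessels accompanies loss of ultrafiltration.

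The libraries held between 21973426 and 26374292 counted reads each, and 14005 genes passed the filter on low counts, all 9 VEGF genes among them. The sample labels describe magnetic sorting of CD31+ cells, whereas the study's supplement describes fluorescence sorting of CD31+ CD45- cells from the mesentery. The CD45 transcript (Ptprc) was nevertheless far above the CD31 transcript (Pecam1). Their means were 2373 and 469 CPM with saline and 1473 and 514 CPM with PD fluid. CPM are read counts per 1000000 counted reads, with library totals adjusted by TMM scaling. The markers of other cell types described further on differed between the groups as well, so the libraries cannot be read as ECs alone. In such bulk samples, fewer cells of a type and less RNA per cell cannot be told apart.

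With PD fluid, 7 of the 9 genes were higher, none was lower, and 2 did not pass edgeR's quasi-likelihood test at a Benjamini-Hochberg adjusted p of 0.05. All 3 receptors and both neuropilins rose, as did Vegfc and Pgf among the 4 ligands. Over the 14005 genes tested, 31.1% were called higher and 27.8% lower. In 8 of the 9 genes every PD mouse was above every saline mouse, which was the case for 34.0% of all genes tested, while every PD mouse was below every saline mouse in 31.6%. The median log2 fold change was 0.98 for the 9 genes and 0.02 for all genes tested. The receptors led, with a median of 1.46, followed by the neuropilins with 1.06 and the ligands with 0.62.

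**Figure D1:**
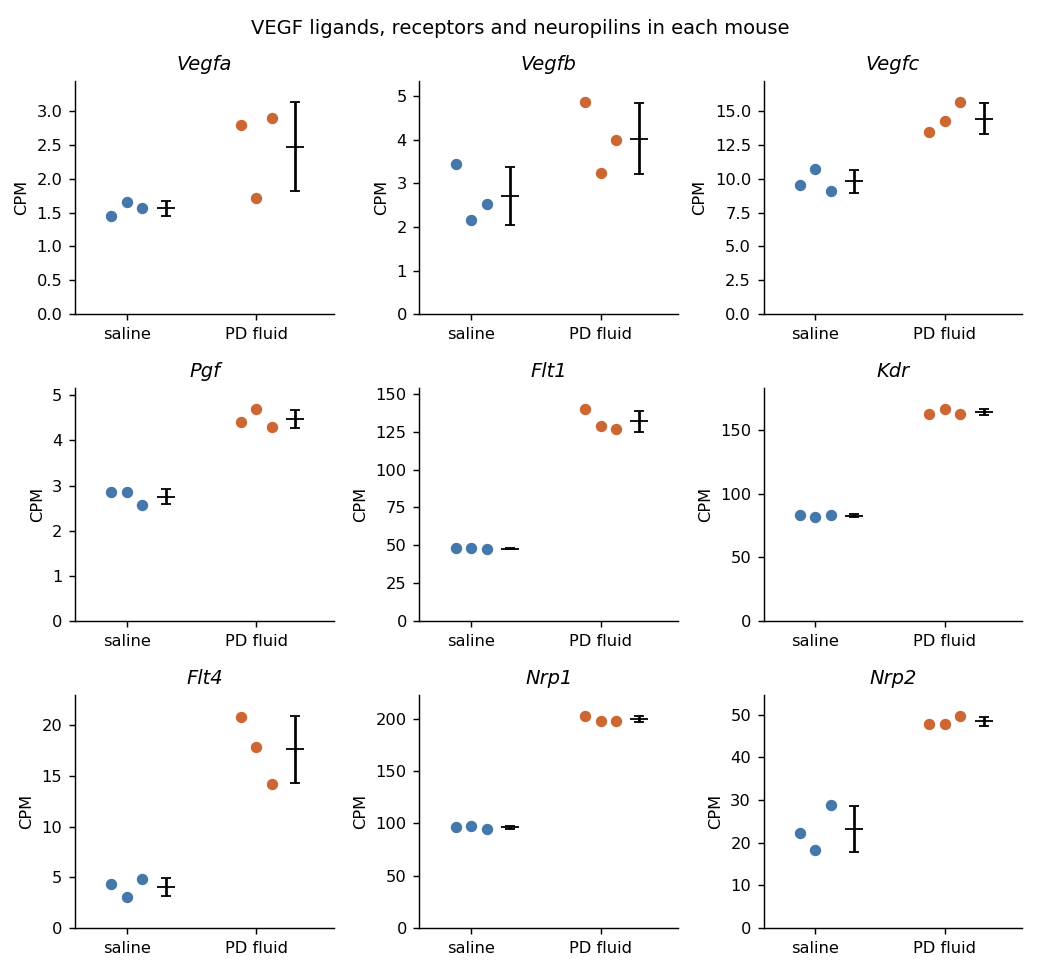
Level of each VEGF gene in each mouse, in CPM on an axis that starts at 0, with 1 point per mouse and the mean and SD (n = 3 mice) beside each group. The groups overlap only for Vegfb, and the gap between them is wide for the receptors and neuropilins.

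Compared per length, as the FPKM values of the deposited table, the co-receptor Nrp1 was the most abundant of the 9 transcripts and Vegfa the least. In saline mice the mean level was 26.7 ± 0.137 FPKM (SD, n = 3) for Nrp1, 13.9 ± 0.275 for Kdr and 7.24 ± 0.019 for Flt1. Below these came Vegfc at 4.50 ± 0.712 and Nrp2 at 3.86 ± 1.05 FPKM, whose mice overlapped, then Vegfb at 2.17 ± 0.536 and Pgf at 1.72 ± 0.101 FPKM, which overlapped too. Flt4 at 0.648 ± 0.146 and Vegfa at 0.559 ± 0.179 FPKM were the lowest and could not be separated. In PD mice the order of the upper 3 was kept, at 55.7 ± 2.204 FPKM for Nrp1, 27.8 ± 0.830 for Kdr and 20.3 ± 1.59 for Flt1. Nrp2 at 8.44 ± 0.400 FPKM then overlapped with Vegfc at 7.34 ± 1.32, and Vegfb at 3.30 ± 0.684 overlapped with Flt4 at 2.84 ± 0.605 and Pgf at 2.82 ± 0.160, while Vegfa stayed lowest at 0.874 ± 0.279 FPKM. The order of the receptors was thus Kdr, Flt1, Flt4 in both groups, with narrower gaps in the PD mice. The level of Kdr was 1.93 ± 0.033 times that of Flt1 in saline mice and 1.38 ± 0.077 times in PD mice (FPKM ratio, SD, n = 3), and 22.3 ± 5.06 and 10.1 ± 1.92 times that of Flt4.

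Among the ligands, Vegfa (chr17:46016993-46032369 on GRCm38, minus strand), the main angiogenic VEGF, had few reads in these libraries of sorted cells. It was at 1.44, 1.66 and 1.57 CPM in saline mice 1 to 3 and at 2.80, 1.72 and 2.90 CPM in PD mice 1 to 3, from 36 to 38 and from 41 to 76 reads. The groups did not overlap, but PD mouse 2 was barely above the highest saline mouse. The log2 fold change of 0.67 (SE 0.28) did not pass the test (edgeR adjusted p = 0.060), and it passed only when PD mouse 2 was left out (0.88, adjusted p = 0.0252).

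Vegfb (chr19:6982473-6987651, minus strand), a ligand of VEGFR1 linked with fatty acid uptake by ECs, was at 3.44, 2.17 and 2.53 CPM in saline mice and at 4.86, 3.23 and 3.99 CPM in PD mice. The groups overlapped, since saline mouse 1 was above PD mouse 2. The log2 fold change was 0.57 (SE 0.24, edgeR adjusted p = 0.0646), from 47 to 132 reads per mouse, and the call changed with mice and settings: the adjusted p was 0.0474 without PD mouse 2 and 0.0312 without saline mouse 1.

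Pgf encodes placental growth factor, which binds VEGFR1 and not VEGFR2. The gene (chr12:85166635-85177790, minus strand) was at 2.85, 2.86 and 2.57 CPM in saline mice and at 4.41, 4.70 and 4.30 CPM in PD mice. The groups were clearly apart, and PD mice had 1.62-fold the mean level of saline mice (log2 fold change 0.70, SE 0.18, edgeR adjusted p = 0.0076).

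The lymphangiogenic ligand Vegfc (chr8:54077606-54187096, plus strand) was the most abundant of the ligands. Its level was 9.53, 10.7 and 9.11 CPM in saline mice and 13.4, 14.2 and 15.6 CPM in PD mice, again without overlap. The mean rose 1.47-fold (log2 fold change 0.56, SE 0.13, edgeR adjusted p = 0.0030). Within each library, the log2 ratio to Vegfa moved by -0.05 for Vegfb, -0.06 for Vegfc and 0.07 for Pgf, and all these ratios overlapped between the groups (exact permutation p from 0.9 to 1.0).

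The receptors changed more. For Flt1, Kdr and Flt4, whose levels relative to each other shifted, the promoter sequences are shown to set the transcripts beside the DNA from which they start. The windows run from 250 bases before to 50 bases after the RefSeq start site (GRCm38.p6), 5′ to 3′ on the strand of the gene, and capitals mark the core motif of ETS factors, GGAA or, on the other strand, TTCC. The Flt1 window is chr5:147725962-147726261, minus strand, the Kdr window chr5:75978406-75978705, minus strand, and the Flt4 window chr11:49609429-49609728, plus strand.
Flt1: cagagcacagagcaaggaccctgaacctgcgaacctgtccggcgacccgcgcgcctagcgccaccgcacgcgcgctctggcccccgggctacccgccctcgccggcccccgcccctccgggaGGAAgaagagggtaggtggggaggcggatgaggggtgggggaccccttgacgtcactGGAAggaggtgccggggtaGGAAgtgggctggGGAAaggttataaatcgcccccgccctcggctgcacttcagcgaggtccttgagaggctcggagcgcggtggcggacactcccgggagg
Kdr: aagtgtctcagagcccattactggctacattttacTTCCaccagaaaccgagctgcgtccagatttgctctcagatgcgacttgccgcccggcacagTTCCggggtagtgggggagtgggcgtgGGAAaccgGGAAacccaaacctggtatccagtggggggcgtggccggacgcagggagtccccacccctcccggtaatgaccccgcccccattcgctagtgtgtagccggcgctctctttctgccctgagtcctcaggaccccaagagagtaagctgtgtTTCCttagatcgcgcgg
Flt4: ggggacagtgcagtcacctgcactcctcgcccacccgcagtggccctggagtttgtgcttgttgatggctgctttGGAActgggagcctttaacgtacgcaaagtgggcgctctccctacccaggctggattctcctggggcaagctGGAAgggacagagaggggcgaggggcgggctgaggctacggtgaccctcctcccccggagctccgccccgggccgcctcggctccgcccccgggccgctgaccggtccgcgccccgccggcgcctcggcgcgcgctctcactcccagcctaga

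ETS factors such as ERG and FLI1 are known to act on many endothelial genes. The core occurred 4 times in the Flt1 window, 5 times in that of Kdr and 2 times in that of Flt4. It also occurred 5 times for Nrp1 and 1 time for Nrp2. Such a short motif is common, since 96.0% of the 32851 RefSeq windows of this length held it, with a median of 3 occurrences, and 46.3% held 4 or more. Flt1 alone of the 9 genes held the cAMP response element TGACGTCA, which reads the same on both strands, from position -81, and a TATA box (TATAAA, or TTTATA on the other strand), from position -31. These were found in 1.79% and 13.6% of all windows. The GC box GGGCGG or CCGCCC was in the windows of all 5 receptor and neuropilin genes and in 35.7% of all windows, and the hypoxia response core ACGTG or CACGT, held by 19.6% of all windows, was in none of those 5. In the windows of these 5 genes no motif overlapped a different one, and in that of Nrp2 the GC boxes from -111 and -106 shared a base. Such matches describe the letters of a window and not a bound site.

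Flt1 (chr5:147561604-147726011, minus strand) was at 47.95, 47.9 and 47.8 CPM in saline mice 1 to 3 and at 139.9, 128.8 and 127.0 CPM in PD mice 1 to 3. The saline mice were nearly equal and all PD mice were far above them. The mean went from 47.9 ± 0.090 to 132 ± 6.98 CPM (SD, n = 3), a 2.75-fold rise (log2 fold change 1.46, SE 0.07, edgeR adjusted p = 2.44e-08). The counts do not separate the membrane-bound from the soluble form of VEGFR1.

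Kdr (chr5:75932827-75978458, minus strand), the main signalling receptor, was at 83.3, 81.8 and 83.6 CPM in saline mice and at 162.8, 166.5 and 162.7 CPM in PD mice. Neither group spread by more than a few CPM. The mean went from 82.9 ± 0.934 to 164 ± 2.16 CPM (SD, n = 3), a 1.98-fold rise (log2 fold change 0.98, SE 0.06, edgeR adjusted p = 1.86e-07).

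Flt4 (chr11:49609263-49652739, plus strand), in adults found mainly in lymphatic endothelium, rose most of the 9 genes. It was at 4.30, 3.09 and 4.80 CPM in saline mice and at 20.8, 17.9 and 14.2 CPM in PD mice, from 67 to 116 and from 314 to 566 reads. Relative to their mean, the PD mice differed among themselves more than for the other receptors, but the lowest of them was well above the highest saline mouse. The mean went from 4.06 ± 0.880 to 17.6 ± 3.30 CPM (SD, n = 3), a 4.34-fold rise (log2 fold change 2.11, SE 0.19, edgeR adjusted p = 5.27e-06). In the order of all genes tested, its log2 fold change stood at percentile 95.9, against 91.0 for Flt1 and 83.6 for Kdr.

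The neuropilins rose side by side. Nrp1 (chr8:128358604-128503363, plus strand), the co-receptor that strengthens VEGF-A binding to VEGFR2, was at 96.3, 97.7 and 95.2 CPM in saline mice and at 203.1, 197.6 and 198.5 CPM in PD mice. Its mean rose 2.07-fold (log2 fold change 1.05, SE 0.06, edgeR adjusted p = 8.8e-08), with no overlap. Nrp2 (chr1:62703285-62818695, plus strand), the co-receptor associated with VEGFR3 and lymphatic vessels, was at 22.2, 18.3 and 28.9 CPM in saline mice and at 47.8, 47.8 and 49.7 CPM in PD mice. Here the saline mice varied and the PD mice did not, and the groups stayed apart (2.09-fold, log2 fold change 1.06, SE 0.14, edgeR adjusted p = 7.4e-05). The log2 ratio of Nrp2 to Nrp1 within a library moved by 0.04 and overlapped between the groups (exact permutation p = 0.7).

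Since 11 of 12 endothelial markers rose as well, the receptors were set against those markers within each library. The markers are genes that ECs of most vessels express, such as Cdh5, which encodes VE-cadherin, and the angiopoietin receptor genes Tie1 and Tek. Their log2 fold changes ran from 0.13 for Pecam1, which did not pass the test (adjusted p = 0.070), through 0.82 for Cdh5 (adjusted p = 0.00011) to 1.65 for Tie1, with a median of 0.96. In saline mice the mean of Pecam1 was 469 CPM and that of Cdh5 18.9 CPM. The part of leukocytes and other cells in the levels of these markers was not tested. Flt4 rose by more than each of the 12, and Flt1 by more than 10 of them, with Tie1 and Robo4 above it. Kdr rose by more than 7 of the 12 and each neuropilin by more than 8, so that these 3 genes lay among the markers.

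Relative to the mean log level of the 12 markers, the log2 ratio of Flt1 was -0.18, -0.04 and -0.17 in saline mice and 0.40, 0.34 and 0.37 in PD mice. For Flt4 it was -3.66, -3.99 and -3.48 in saline mice and -2.34, -2.51 and -2.79 in PD mice. Both receptors were thus higher relative to the endothelial markers in every PD mouse, by 0.50 and 1.16 on the log2 scale. For Kdr the ratio moved by 0.03, for Nrp1 by 0.09 and for Nrp2 by 0.13, and the mice of the groups overlapped (two-sided exact permutation p = 0.8, 0.3 and 0.5).

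Directly against Kdr, which does not depend on the choice of markers, the log2 ratio of Flt1 was -0.80, -0.77 and -0.81 in saline mice and -0.22, -0.37 and -0.36 in PD mice, a shift of 0.48. That of Flt4 moved by 1.13, also without overlap, and that of Nrp1 by 0.07, with overlap. Of 12 ratios examined, the 4 that involve Flt1 or Flt4 did not overlap between the groups, all 4 higher in PD mice, and the other 8 did. The exact permutation test gave these 4 p = 0.1, the smallest that 3 mice against 3 allow, and 0.3 once adjusted for all 12 ratios (Benjamini-Hochberg), so none could reach the threshold.

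**Figure D2:**
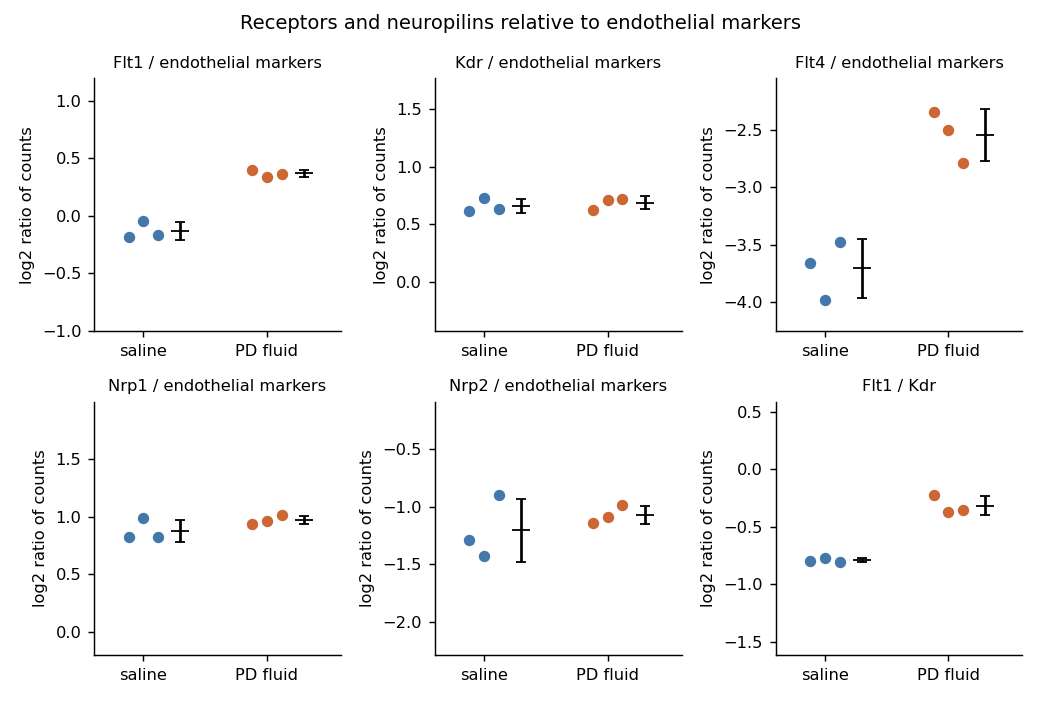
Log2 ratio of read counts of each receptor or neuropilin to the mean of 12 endothelial markers, and of Flt1 to Kdr, with 1 point per mouse and the mean and SD (n = 3 mice); all panels span the same range. The PD mice lie above the saline mice for Flt1, Flt4 and the Flt1 to Kdr ratio, and the groups overlap for Kdr, Nrp1 and Nrp2.

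The count model was also fitted with the libraries scaled to the 12 endothelial markers in place of all genes. With scaling to their summed counts, Flt1 (log2 fold change 0.77), Flt4 (1.42), Kdr (0.30), Nrp1 (0.36) and Nrp2 (0.38) were called higher and none of the 9 genes lower, where 12.3% of all genes tested were called higher and 63.7% lower. In saline mice Pecam1 made up 39.8% of those summed counts, so scaling to the mean log level of the markers was added after seeing the data. Flt1 (0.50, edgeR adjusted p = 0.00011) and Flt4 (1.16, adjusted p = 5.5e-06) were then still called higher, Vegfc was called lower (-0.40, adjusted p = 0.0218), and the other 6 genes were not called, where 8.47% of all genes were called higher and 71.7% lower. The calls of Flt1 and Flt4 held under both endothelial scalings, those of Kdr and the neuropilins under the first only. These scalings moved the median of all genes to -0.67 and -0.94 on the log2 scale. The 4 ligands did not pass under the first (-0.13 to 0.01), and under the second all lay below 0 (-0.26 to -0.40), so Vegfc and Pgf were called higher relative to all counted RNA and not relative to the endothelial markers.

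**Figure D3:**
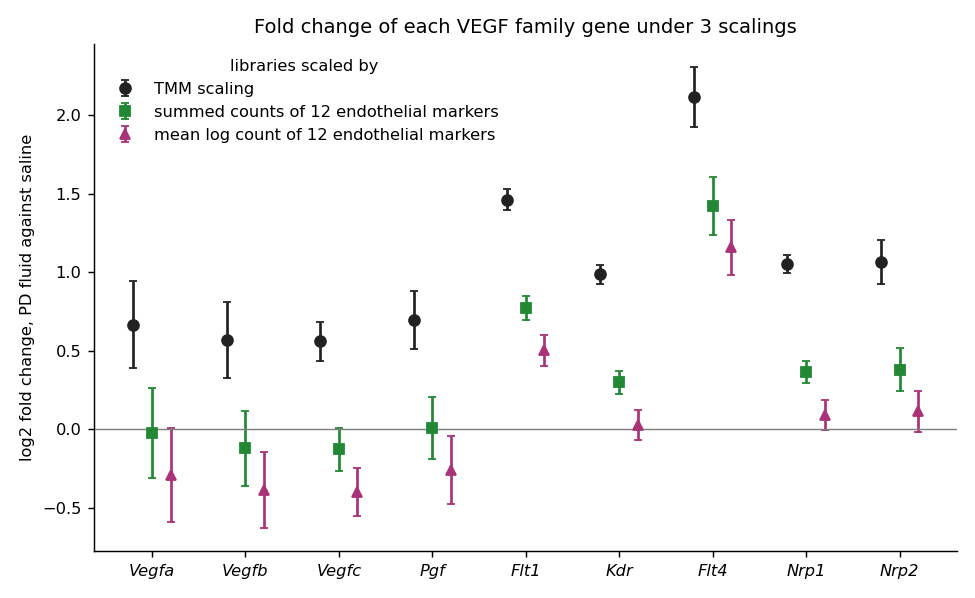
Log2 fold change of each VEGF gene, PD fluid against saline, with its SE, under TMM scaling and under both scalings to 12 endothelial markers. Flt1 and Flt4 stay well above 0 under all 3 scalings, and the ligands are above 0 under TMM scaling only, apart from Pgf at 0.01 under summed counts.

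Markers of other cell types also moved. The score of a list, its mean log2(CPM + 1), did not overlap between the groups for any of 13 lists (exact permutation p = 0.1 for each, adjusted p = 0.1), and no marker was at 0 in all mice. The score of the lymphatic markers, among them Prox1 (log2 fold change 1.70) and Lyve1 (2.39), rose by 2.10, and their summed level went from 223 to 245 CPM with saline to 1021 to 1171 CPM with PD fluid. The mesothelial score rose by 2.70 (Upk3b 3.06, Msln 3.92), the fibroblast score by 2.96 (Pdgfra 2.35, Col1a1 3.85) and the pericyte and smooth muscle score by 1.16 (Pdgfrb 1.09, Rgs5 0.26). The macrophage score rose by 1.94 (Adgre1 2.04, Csf1r 1.77), with a summed level of 2376 to 2519 CPM with saline and 9639 to 10368 CPM with PD fluid. The neutrophil score rose by 3.78 (S100a8 5.87, S100a9 5.32), the mast cell score by 0.58 (Cpa3 0.31, Kit 0.83) and the pancreatic acinar score by 9.18 (Cela2a 12.39, Cpa1 12.11), the last from summed levels of 1.13 to 3.37 CPM in saline mice. The B cell score was lower by 1.05 (Cd79a -1.21), the pan-leukocyte score by 0.29 (Ptprc -0.69, Cd53 -0.52, with 4 of 6 genes called lower and Laptm5, named after its values were seen, called higher at 0.31), the T cell score by 0.19 (Cd3e 0.06, Cd3d -0.32, with 4 of 7 genes called lower) and the adipocyte score by 0.18 (Adipoq -0.30, Plin1 0.54, with 1 of 5 tested genes called lower). Mesothelial cells, fibroblasts and macrophages are known to express VEGF ligands, and macrophages also Nrp1, Nrp2 and Flt1. The part of these cells in the levels of the 9 genes was not tested.

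**Figure D4:**
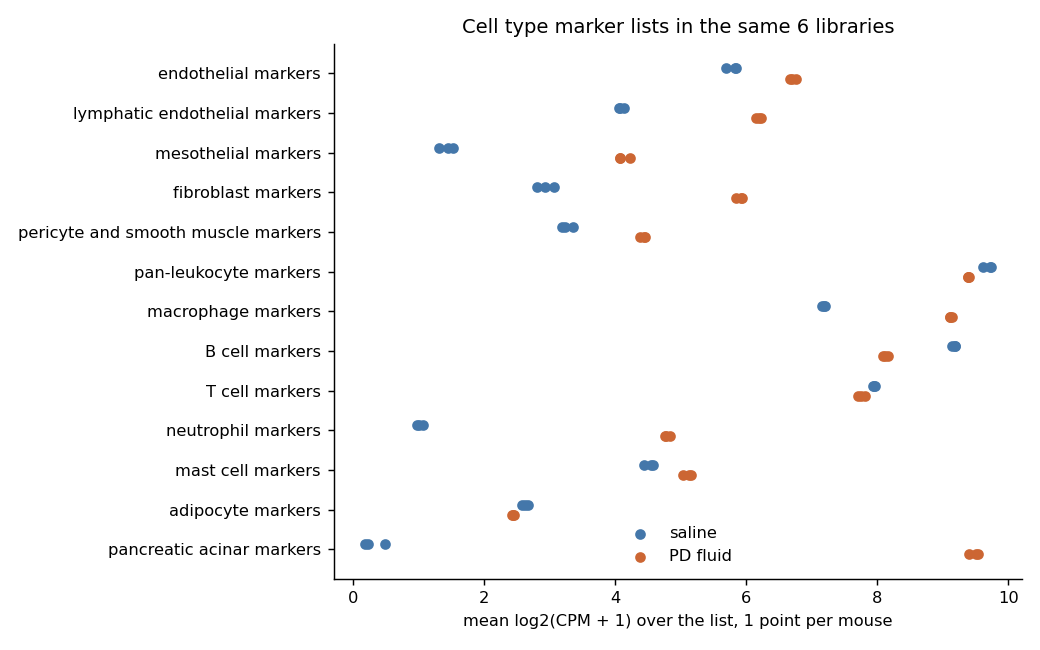
Mean log2(CPM + 1) over each of 13 lists of cell type markers, with 1 point per mouse. The groups are apart in every list, with 9 lists higher in PD mice and the pan-leukocyte, B cell, T cell and adipocyte lists lower.

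Because Flt4 is a lymphatic receptor, it was also set against the 6 lymphatic markers, a ratio added after seeing the data. Its log2 ratio to them was -1.76, -2.29 and -1.59 in saline mice and -1.73, -1.98 and -2.34 in PD mice. The groups overlapped, with a shift of -0.14 (exact permutation p = 0.6), and the log2 fold change of 2.11 for Flt4 stands beside a median of 2.34 for the lymphatic markers. These markers ran from 1.70, for Prox1, to 2.64, for Pdpn, so Flt4 rose by more than some of them and less than others. The part of other cells in the levels of the lymphatic markers was not tested. Nrp2 and Vegfc fell relative to the lymphatic markers in every PD mouse, by 1.17 and 1.70 on the log2 scale (exact permutation p = 0.1 for each).

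Of the other genes of the pathway, 91 of 96 listed symbols could be tested, of which 52 were higher, 10 lower and 29 not called. Their median log2 fold change was 0.53. Of all genes tested, 31.1% were called higher and 27.8% lower. Scaling to the summed endothelial markers gave 28 higher and 41 lower, where 12.3% of all genes tested were called higher and 63.7% lower. Scaling to their mean log level gave 19 and 47, where the shares of all genes were 8.47% and 71.7%. Semaphorins and plexins, the other ligands and partners of the neuropilins, rose most often, with 11 of 12 higher, none lower and a median of 1.67, and 9 and 6 were still higher under these scalings. The semaphorin receptors Plxna4 (log2 fold change 2.37, SE 0.15), Plxna2 (1.63, SE 0.12) and Plxna1 (1.72, SE 0.22) had the smallest p-values, and Plxna3 was the only gene of the list without a call (0.07). Plxna2 was at 9.10, 8.07 and 7.37 CPM in saline mice and at 23.7, 26.8 and 25.5 CPM in PD mice.

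Genes of receptor-proximal signalling were mixed, with 14 of 29 higher and 7 lower, against 31.1% and 27.8% of all genes, and a median of 0.24. Nos3, the endothelial nitric oxide synthase, rose by 1.65 (SE 0.22) and the heat shock protein gene Hspb1, whose product is phosphorylated downstream of VEGFR2, by 1.26 (SE 0.10), while the protein kinase gene Prkcb, which B cells also express strongly, fell by 0.52 (SE 0.07). Among receptor phosphatases, trafficking and feedback genes, 5 of 15 were higher, a share close to the 31.1% of all genes, and 1 lower, with a median of 0.14, and without PD mouse 3 the number lower was 4. The endocytic adaptor Dab2, also a gene of macrophages, rose by 1.72 (SE 0.07), the Ras pathway inhibitor Spred1 by 1.42 (SE 0.16) and Efnb2, which encodes the ephrin-B2 needed for VEGF receptor uptake, by 1.06 (SE 0.20).

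Of the genes that process VEGF-C and VEGF-D, 9 could be tested, and 7 were higher and none lower, with a median of 1.40. The shares of all genes tested were 31.1% higher and 27.8% lower. The protease Ctsd rose by 1.88 (SE 0.08), the plasminogen activator Plat by 1.40 (SE 0.08) and the proprotein convertase Pcsk7 by 0.54 (SE 0.09). The part of macrophages and other cells in these rises was not tested. The list also holds the ligand Vegfd, named after its values were seen, which was at 0.234, 0.323 and 0.207 CPM in saline mice and at 0.883, 0.881 and 0.861 CPM in PD mice (log2 fold change 1.77, edgeR adjusted p = 0.0046). It was thus the rarest VEGF ligand in saline mice, at 5 to 7 reads a mouse. Ccbe1, a cofactor of VEGF-C cleavage, likewise named afterwards, had 0 reads in all saline mice and 12 to 15 in PD mice, at least 4.63-fold higher against a floor of 3 reads in each saline library.

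Regulators of Vegfa transcription were mostly not called, with 4 of 11 higher, again close to the 31.1% of all genes, 1 lower and a median of 0.07. The hypoxia-inducible factor gene Epas1, abundant in ECs, was at 98.6, 73.8 and 109 CPM in saline mice and at 232, 182 and 177.9 CPM in PD mice (log2 fold change 1.07, SE 0.14, edgeR adjusted p = 7.3e-05). Hif1a (0.22, SE 0.07), Stat3 (0.27, SE 0.06) and the prolyl hydroxylase gene Egln2 (0.33, SE 0.13) rose slightly, and the coactivator Ppargc1a fell by 0.92 (SE 0.20). Of 15 genes known to rise in ECs after VEGF, 11 were higher and 1 lower, against 31.1% and 27.8% of all genes. The median of these 15 genes was 0.81, below the median of 0.96 for the endothelial markers. The protease Adamts1 rose by 1.77 (SE 0.10), the Notch ligand Dll4 by 1.39 (SE 0.13) and the immediate early gene Egr1 by 0.88 (SE 0.08). Egr3, named after its values were seen, fell by 0.66 (SE 0.16). Hif1a lost its call when saline mouse 1 or 3 was left out and Egln2 without saline mouse 1 or 2 or PD mouse 1 or 2. Without saline mouse 1 only 2 regulators were called higher, and under both endothelial scalings Pcsk7, Stat3, Hif1a and Egln2 turned negative and Efnb2 lost its call (0.37 and 0.10, edgeR adjusted p = 0.0960 and 0.620). Egr1 lost its call under both as well (0.19 and -0.08), and Epas1 under the scaling to the mean log level (0.12, adjusted p = 0.368).

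**Figure D5:**
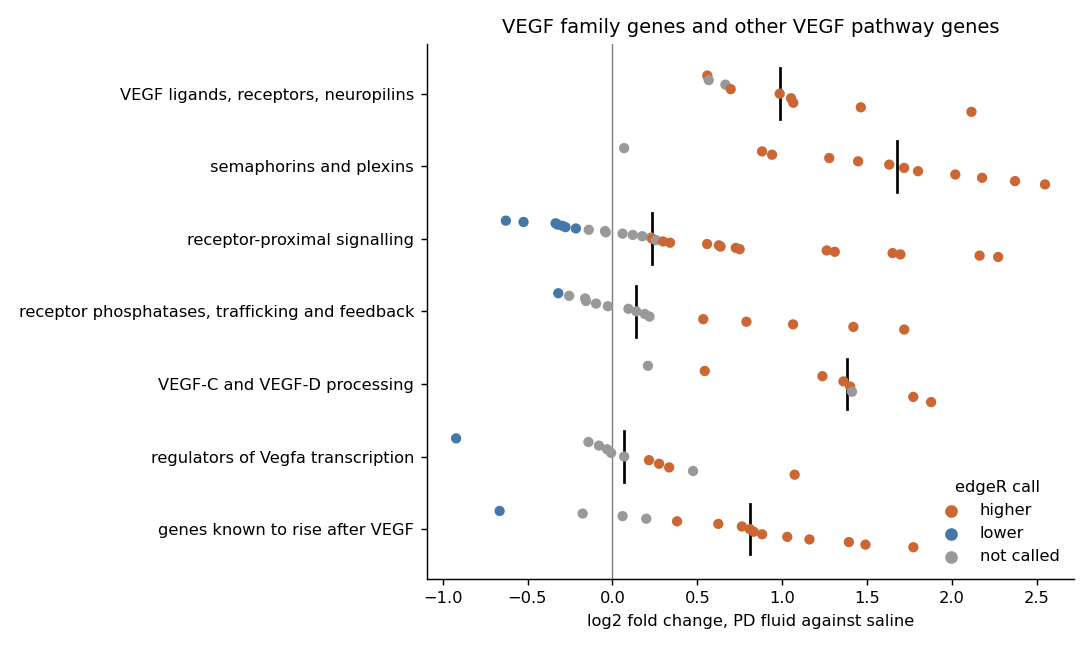
Log2 fold change, PD fluid against saline, of the 9 VEGF genes and of the tested genes of 6 other pathway lists, coloured by edgeR call, with a black line at the median of the genes drawn; Ccbe1, at 0 reads in all saline mice, is left out. Semaphorins and plexins lie almost entirely to the right of 0, and receptor-proximal genes on both sides.

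The genes most like each VEGF gene over the 6 mice were found by the root mean square difference of their mean-centred log2(CPM + 1). They were Stom, Tgfb3 and Tcn2 for Flt1 (differences of 0.032, 0.036 and 0.044), Entpd1, Pcyt1a and Hexa for Kdr (0.035, 0.035 and 0.036) and Arhgef10l, Socs3 and Fzd1 for Flt4 (0.069, 0.074 and 0.080). For Nrp1 they were Rab31, Myadm and Clu (0.023, 0.028 and 0.032), for Nrp2 Homer3, Pth1r and Anpep (0.050, 0.064 and 0.065) and for Vegfa Loxl4, Nnt and Wwox (0.041, 0.054 and 0.076). The measure mostly follows the size of the difference between the groups and rests on 6 libraries, so these are descriptions. Among 13996 genes, Cdh5 stood at place 519 for Kdr, 161 for Nrp2, 761 for Nrp1, 1556 for Flt1, 1727 for Flt4 and 3236 for Vegfa. Pecam1 was far from all receptors and neuropilins, at places 5108 to 5917, and at 1385 for Vegfa. At the low level of Vegfa, a mean of 1.56 CPM in saline mice, the added 1 shrinks differences. Its nearest genes thus had unlike log2 fold changes, such as 1.14 for Loxl4 and 0.43 for Nnt.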

How the data were processed

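Transcripts were measured by RNA-seq in 6 libraries, with the treatment of each mouse taken from its labels. RNA was captured with oligo(dT) and libraries were made with a kit that does not mark strand, so reads of antisense genes cannot be told apart. The authors deposited a table with the read count of each gene and mouse, without normalization, and the FPKM values that the authors computed. The table's group means, log2 ratio, p-value and FDR of the authors' comparison were not used. The submitters' processing notes list fastp 0.18.0, Bowtie2 2.2.8, HISAT2, StringTie 1.3.1 and RSEM without their roles, and the genome build of the counts is not given in the sources used here, so positions come from GENCODE M21 (GRCm38), to which 22128 of 22183 identifiers matched. No column of sample values was left unmatched.

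Counts were analysed in R 4.3.3 with edgeR 4.0.16 (filterByExpr, TMM scaling, quasi-likelihood test over 14005 genes, Benjamini-Hochberg threshold 0.05), after testing on simulated data. The simulated data held far fewer changed genes than were called here, so TMM scaling under so wide a change was not tested. SEs were derived from the F statistic. CPM values are counts per 1000000 counted reads of the genes kept by the filter, with each library total multiplied by its TMM factor. Ratios within a library were log2((count + 0.5) / (count + 0.5)) and were compared, like marker scores, by two-sided exact permutation tests in scipy 1.17.1. FPKM values served for levels between genes and, as log2(FPKM + 1) or log2(FPKM + 0.1), for an alternative test with limma 3.58.1. Other alternatives were DESeq2 1.42.0, limma-voom, no filter, endothelial scalings, the replicate number as a block and leaving out each mouse. The p-values measure the spread between these mice. No 2 libraries of the same group agreed within sampling noise. Promoters are RefSeq windows, found for all 9 genes.

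The genes and lists were chosen with earlier results of these data known. Named besides the 9 genes were the 3 genes of each pathway list with the smallest p, all called genes of a list with at most 5 calls, the first 2 genes of each marker list (1 of these genes is not reported here), and the 3 genes most like Vegfa, each receptor and each neuropilin, apart from those stated to be named after their values were seen.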

Additional observations from a re-analysis of the deposited data

How the results depend on the processing

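Vegfc, Pgf, Kdr, Nrp1, Nrp2, Flt1 and Flt4 kept their direction and call under DESeq2, limma-voom, no filter, FPKM values, the replicate block and every omission of a mouse. Scaling to the summed endothelial markers gave log2 fold changes of -0.023 for Vegfa, -0.12 for Vegfb, -0.13 for Vegfc and 0.0091 for Pgf. Scaling to their mean log level, added after seeing the data, gave -0.29, -0.39, -0.40 and -0.26 for these ligands, 0.026 for Kdr, 0.091 for Nrp1 and 0.11 for Nrp2, and left 2 VEGF genes higher and 1 lower. The numbers of all genes called were 1721 higher and 8920 lower under the first and 1186 and 10045 under the second, and those of pathway genes 28 and 41, and 19 and 47. Pcsk7 moved to -0.15 and -0.42, Stat3 to -0.41 and -0.68, Hif1a to -0.47 and -0.75, Egln2 to -0.36 and -0.62, and Egr1 to -0.077 under the second. Vegfb passed with FPKM plus 1 (0.44, limma adjusted p = 0.0390), with FPKM plus 0.1 (0.59, limma adjusted p = 0.0426) and with the replicate block (0.57, edgeR adjusted p = 0.0471), where 8 VEGF genes were higher. Whether the replicate numbers pair the mice could not be decided from so few mice. Deviations of same-numbered mice correlated at 0.19, 0.07 and -0.27, and not every mouse correlated best with its own number. In FPKM the log2 ratio to Vegfa moved by 0.038 for Vegfb and 0.14 for Vegfc. With each mouse left out in turn, Vegfa ranged from 0.55 to 0.88, Vegfb from 0.40 to 0.78, the ratio of Nrp2 to Nrp1 from -0.13 to 0.22 and the ratios to Vegfa from -0.24 to 0.19 for Vegfb, -0.29 to 0.093 for Vegfc and -0.20 to 0.23 for Pgf, while 7 to 9 VEGF genes, 3852 to 4333 of all genes higher and 3121 to 3685 lower were called. The causes of these shifts were not tested. Depth limits Vegfa, Vegfb and Pgf, at 36 to 132 reads a mouse.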

Other observations

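The FPKM of a gene was not a fixed multiple of its CPM. Vegfa had 37, 36 and 38 reads in saline mice 1 to 3 and FPKM values of 0.418, 0.50 and 0.760, and Vegfc, with 244, 233 and 220 reads, had 3.89, 4.33 and 5.28 FPKM, so that the order of the mice was not that of their reads. For Flt1 the saline mice had 7.25, 7.22 and 7.25 FPKM, in proportion to CPM. The transcript lengths behind the FPKM values were not analysed here.

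In GENCODE M21, Nrp1 overlaps the miRNA gene Mir1903 on the same strand. Nrp2 overlaps the antisense gene Gm29083 and, on the same strand, Gm37121. None of these overlapping genes has a row of its own in the table.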
